A study of Mus musculus with 31 samples.

Results

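Divergent promoters of protein-coding genes were examined in the open chromatin of NIH-3T3 cells. A divergent pair was defined as a minus-strand and a plus-strand coding gene of the GENCODE annotation that point away from each other, whose gene records do not overlap and begin at most 1000 bp apart. The rule found 754 pairs, which hold 1487 of the 21938 coding genes of the annotation (6.78%) at 733 loci, because 21 genes belong to 2 pairs. A pair was called open when the deposited peak list holds a peak that overlaps the stretch between both gene starts, extended by 250 bp per side, and closed otherwise. In all, 687 pairs were open (91.1%, Wilson 95% interval 88.9% to 92.9%), whereas 45.6% of all coding gene starts had a peak within 250 bp. The other 67 pairs were closed. Peaks at divergent pairs made up 686 of the 63456 peaks of the list (1.08%), and 19 of them lie at more than 1 pair.

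The peaks come from 1 ATAC-seq library of the parental NIH-3T3 line, a mouse fibroblast line, with no transgene named in its labels. ATAC-seq uses the transposase Tn5 to insert sequencing adapters into DNA that is not wrapped in nucleosomes. Here 50000 cells were transposed for 30 min with 0.5 µM Tn5, and the library was amplified in 12 PCR cycles. The other 30 samples of the series, lines that overexpress 1 of 13 transcription factors or carry rtTA3G alone, were not analysed here. With 1 library there is no replicate, so no test between samples or between sets of promoters was made. Intervals cover counting error only, and a pair without a listed peak is a pair without a called peak at this depth, which does not show that its DNA was fully closed. The 8 fibroblast marker genes examined all had a peak at their start (fold enrichment 5.83 to 10.52), among them Col1a1, Col1a2, Fn1 and Pdgfrb. None of the 15 markers of epithelium, blood, neurons, embryonic stem cells and muscle did, whereas both endothelial markers did, Pecam1 at a fold enrichment of 2.33 and Cdh5 at 12.8. Whether other cells contributed was not tested.

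Most mammalian promoters start RNA synthesis in both directions. At a divergent coding pair each direction leads into a gene of its own, so a short stretch of DNA serves as the upstream region of both. Such pairs are known to be frequent among housekeeping genes, such as those of DNA repair and mitochondria, and to lie mostly in CpG islands. A CpG island is a stretch where the dinucleotide CpG, which is lost over evolution where it is methylated, has been retained, and many are nucleosome-poor across cell types. The transcription factors NF-Y, Sp1, NRF1, YY1 and members of the ETS family bind many of these promoters.

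The DNA between the starts is shown for 6 open pairs, chosen for the factor motifs they hold and for the gene groups they represent. Sequences are from the plus strand of mm10, 5′ to 3′, and run from the base after the start of the minus-strand gene to the base before the start of the plus-strand gene. Capitals mark matches on either strand to the NF-Y box CCAAT, the Sp1 box GGGCGG, the ETS core CCGGAAG and the NRF1 core GCATGCG. A match on the minus strand appears as its reverse complement. Matches that touch or overlap run together in 1 stretch of capitals.
Mrps12–Sars2, chr7:28741821-28741991: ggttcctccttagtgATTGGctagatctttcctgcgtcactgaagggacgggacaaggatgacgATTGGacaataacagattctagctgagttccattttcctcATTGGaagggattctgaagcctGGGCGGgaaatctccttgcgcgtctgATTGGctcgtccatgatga
Tbccd1–Dnajb11, chr16:22857670-22857844: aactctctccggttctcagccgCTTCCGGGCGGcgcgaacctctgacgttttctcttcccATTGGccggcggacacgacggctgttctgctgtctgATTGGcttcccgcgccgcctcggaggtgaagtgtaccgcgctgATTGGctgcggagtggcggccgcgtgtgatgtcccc
Gtf2e1–Rabl3, chr16:37539790-37539884: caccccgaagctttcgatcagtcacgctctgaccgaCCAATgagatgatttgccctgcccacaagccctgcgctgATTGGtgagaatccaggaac
Rpl36al–Mgat2, chr12:69184084-69184156: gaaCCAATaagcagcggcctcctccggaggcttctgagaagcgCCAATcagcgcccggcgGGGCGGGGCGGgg
Usp5–Cdca3, chr6:124829485-124829546: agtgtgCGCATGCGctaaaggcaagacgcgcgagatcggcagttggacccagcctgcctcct
Esf1–Ndufaf5, chr2:140170565-140170648: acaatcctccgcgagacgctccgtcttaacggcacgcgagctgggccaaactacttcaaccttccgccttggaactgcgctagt

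The Mrps12–Sars2 interval holds 4 NF-Y boxes in 171 bp and the Tbccd1–Dnajb11 interval holds 3 in 175 bp. In the latter an ETS core and an Sp1 box share their GG. The Esf1–Ndufaf5 interval holds none of the motifs searched, although its peak was among the highest (fold enrichment 18.01).

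For comparison, the DNA between the starts is shown for 5 closed pairs: 3 with a CpG-rich window, the collagen pair Col4a4–Col4a3, and 1 histone pair. The same motifs are in capitals.
Smc1b–Ribc2, chr15:85131965-85132077: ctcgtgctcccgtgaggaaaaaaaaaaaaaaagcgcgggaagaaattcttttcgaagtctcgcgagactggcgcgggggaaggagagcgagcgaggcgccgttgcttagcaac
Ndufa1–Rnf113a1, chrX:37191164-37191244: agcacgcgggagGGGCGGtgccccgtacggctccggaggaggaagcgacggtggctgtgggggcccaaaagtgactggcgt
Ddx25–Pus3, chr9:35558529-35558594: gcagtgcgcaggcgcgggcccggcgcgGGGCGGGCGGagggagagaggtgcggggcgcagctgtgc
Col4a4–Col4a3, chr1:82586850-82586920: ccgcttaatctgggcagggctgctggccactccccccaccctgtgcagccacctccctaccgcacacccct
Hist1h2ap–Hist1h2br, chr13:21833508-21833742: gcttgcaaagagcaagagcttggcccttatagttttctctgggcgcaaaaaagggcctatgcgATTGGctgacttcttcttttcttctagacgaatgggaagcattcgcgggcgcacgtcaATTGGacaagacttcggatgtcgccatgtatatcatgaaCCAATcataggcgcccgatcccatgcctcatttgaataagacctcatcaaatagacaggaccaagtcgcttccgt

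The Smc1b–Ribc2 interval, 113 bp with 13 CpG, is as rich in CpG as those of open pairs. The Col4a4–Col4a3 interval holds 2 CpG in 71 bp. The closed histone interval holds 3 NF-Y boxes, and those of Ndufa1–Rnf113a1 and Ddx25–Pus3 each hold at least 1 Sp1 box, so motif letters alone did not separate open from closed members.

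Open divergent promoters lay under high and broad peaks. The fold enrichment of a peak is the number of fragments at its summit relative to the local background, each with 1 added. Its median over the 687 open pairs was 10.8 (quartiles 8.64 and 13.3, range 3.65 to 19.9), against 6.04 over all peaks of the list. The median peak width was 917 bp (quartiles 727.5 and 1149.5) against 327 bp for the whole list. At the summit a median of 77 fragments overlapped (quartiles 55 and 103, range 16 to 263), while the median over the list was 29. A fold enrichment of at least 10 was reached at 422 open pairs (61.4%) and by 20.1% of all peaks. Other promoters also lie under high peaks, so the comparison with other open gene starts is given further on.

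The highest peak at a pair of named genes was that of Rpgrip1l and Fto, a ciliary transition zone protein and an RNA demethylase, whose starts are 263 bp apart on chromosome 8. Its summit held 181 fragments (95% Poisson interval 156 to 209) over 8.13 expected, a fold enrichment of 19.9. Mtrex–Dhx29, an RNA exosome helicase and a helicase of translation initiation, followed at 19.5 with 104 fragments (85.0 to 126). Trappc11–Rwdd4a reached 19.2, where Trappc11 is a subunit of the TRAPP vesicle tethering complex. Cep128–Tshr reached 18.9, and here a centrosomal protein gene shares its promoter region with the thyrotropin receptor gene, a gene known for its role in the thyroid. Sclt1–D3Ertd751e and Ccdc146–Fam185a each reached 18.6, and Sclt1 encodes a component of centriole appendages. The next, at 18.6, was a peak on the X chromosome that serves both Cmc4–Brcc3 and Mtcp1–Brcc3, because Cmc4 and Mtcp1 begin 4 bp from each other. Brcc3 is a deubiquitinase of a DNA repair complex. Over these peaks the fragments at the summit ranged from 82 to 181 and the expected number from 3.47 to 8.13, so a high fold enrichment did not always go with many fragments.

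The widest peaks were not among the highest, and of the 5 named here only the first exceeded the median fold enrichment of open pairs (10.8). The peak of Uqcrh–Lrrc41, where Uqcrh is a hinge subunit of respiratory complex III, spanned 2221 bp at a fold enrichment of 11.3. Usp5–Cdca3, a deubiquitinase and a trigger of mitotic entry, had a peak of 2194 bp and fold enrichment 8.78 with its summit inside Usp5. The peak of Nfya–Oard1 spanned 2035 bp at a fold enrichment of 8.94, and Nfya encodes the DNA-binding subunit of NF-Y itself. Cep57–Fam76b and Atp6v1a–Naa50 followed at 1994 and 1908 bp, with fold enrichments of 9.31 and 7.90. The summit of the latter lay inside Atp6v1a, a subunit of the vacuolar proton pump. Across the 687 open pairs, fold enrichment and width were weakly correlated (Spearman's rho 0.21, Pearson's r 0.18), and all these points share the same library.

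At nearly all open pairs a single peak covered both starts. This was the case at 636 of 687 pairs (92.6%), with a median start distance of 111.5 bp. From each start this peak reached a median of 383 bp into the minus-strand gene and 376.5 bp into the plus-strand gene, so both sides were alike. A peak covered only the minus-strand start at 13 pairs and only the plus-strand start at 21 pairs. Separate peaks covered each start at 9 pairs with a median start distance of 861 bp, and at 8 pairs the peaks covered neither start. In all, 669 open pairs had 1 peak and 18 had 2.

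**Figure D1:**
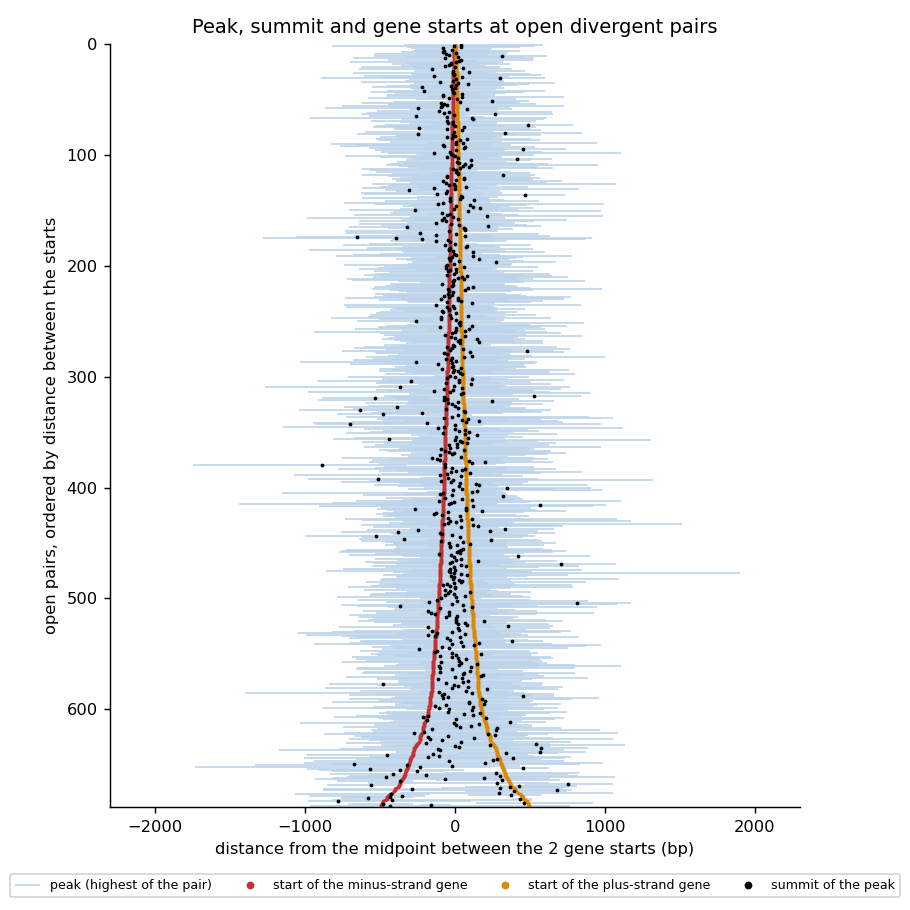
Position of the highest peak at each of the 687 open pairs. Each line is a pair, ordered from the shortest start distance (1 bp) at the top to the longest (987 bp) at the bottom. The x axis gives the distance in bp from the midpoint between the starts, bars span the peak, red and orange points mark the minus-strand and plus-strand starts, and black points mark summits. In most lines the bar extends past both starts. Summits lie between the starts at 23.8% of open pairs 1 to 50 bp apart, 78.2% at 201 to 400 bp and 68.4% at 401 to 1000 bp. The stretch between the starts also grows longer down the figure.

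The pairs with separate or partial peaks show how a shared region can divide. At Wrn–Purg, a RecQ helicase and a purine-rich element binding protein 798 bp apart, a peak of 841 bp and fold enrichment 12.8 covered the Wrn start. A second peak of 290 bp and a fold enrichment of 3.7997 covered the Purg start. Zfyve26–Rad51b, where Rad51b acts in homologous recombination, had peaks at 12.0 and 5.79 over starts 978 bp apart. Smim7–Tmem38a had 11.1 over Smim7 and 4.62 over Tmem38a, an intracellular cation channel gene. In each of these 3 pairs the minus-strand gene had the higher peak. At Mfsd8–Abhd18, the highest of the pairs with 2 peaks and no peak over both starts, the peak of 16.9 lay wholly inside the lysosomal transporter gene Mfsd8, and left out its annotated start. A lower peak of 4.43 covered the start of Abhd18.

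Among pairs with 1 covered start, Atp7b–Alg11 had the highest peak (17.6, 100 fragments), which covered the start of Alg11, a mannosyltransferase of N-glycosylation. It stopped 32 bp short of the annotated start of the copper pump gene Atp7b. Tmem126b–Dlg2, a complex I assembly factor and a synaptic scaffold protein, had its peak of 17.3 over Tmem126b only and stopped 30 bp short of the start of Dlg2, 671 bp away. Ndufa5–Asb15 had a peak of 15.4 over Ndufa5, a complex I subunit, and stopped 13 bp short of the start of Asb15, known from skeletal muscle. In all 3 the start that was left out lay close to the edge of the peak.

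The starts were mostly close together. The median distance was 129.5 bp (quartiles 67 and 240, range 1 to 987), with 125 bp at open and 151 bp at closed pairs. Bag4–Lsm1 and Slc7a6os–Prmt7 begin at adjacent bases. Their peaks had fold enrichments of 12.5 and 12.6, and their summits were within 40 bp of the starts. These 4 genes encode a chaperone regulator, an mRNA decapping activator, a protein named for its place opposite a transporter gene, and an arginine methyltransferase. The 2 pairs were singled out after their values were seen.

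The open share was high at every distance. It was 98.4% (126 of 128 pairs) where starts were 1 to 50 bp apart, 91.3% (168 of 184) at 51 to 100 bp, 89.3% (184 of 206) at 101 to 200 bp, 91.7% (133 of 145) at 201 to 400 bp and 83.5% (76 of 91) at 401 to 1000 bp. The Wilson interval of the shortest class (94.5% to 99.6%) lay above that of the longest (74.6% to 89.7%), and those of the 3 classes between overlapped each other. The median CpG ratio also differed, being 0.88 in the shortest class and 0.59 in the longest, and its part in the open share was not tested. This ratio was taken in 500 bp centred between the starts. That window holds neither start where they are more than 500 bp apart, so the classes were not measured over like sequence. A single peak covered both starts at every open pair of the shortest class and at 53.9% of the longest. The median width went from 824.5 bp in the shortest class to 1005 bp at 201 to 400 bp (rho of width with distance over open pairs 0.22, r 0.13), while fold enrichment was nearly unrelated to distance (rho 0.03, r -0.09).

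Summits lay between the starts at 353 of 687 open pairs (51.4%). The stretch between the starts makes up a median of only 20.1% of the region searched. The share was 23.8% in the shortest class, 78.2% at 201 to 400 bp and 68.4% at 401 to 1000 bp. In these classes the stretch makes up a median of 6.19%, 35.1% and 55.4% of the region searched. Within the stretch summits had no preferred side: 119 lay in the part next to the minus-strand start, 125 in the middle part and 109 in the part next to the plus-strand start, when the stretch was cut into 3 equal parts. Of the remaining summits, 182 lay inside the minus-strand gene and 152 inside the plus-strand gene, at a median of 49.5 bp from its start.

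**Figure D2:**
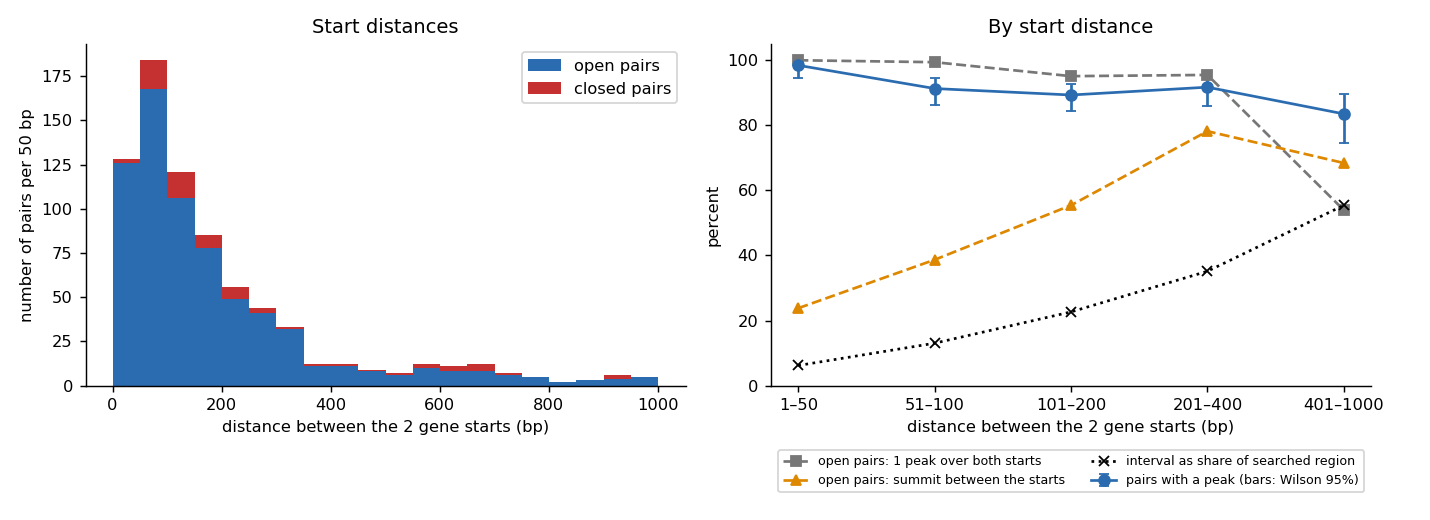
Left, number of open (blue) and closed (red) pairs by distance between the starts in bins of 50 bp. Right, percent of pairs with a peak (blue, bars are Wilson 95% intervals), percent of open pairs with 1 peak over both starts (grey), percent with the summit between the starts (orange) and the median share of the searched region taken by the stretch between the starts (black), by start distance in bp. The open share goes from 98.4% to 83.5%, and the share with 1 peak over both starts stays at 95.1% or more up to 400 bp and is 53.9% beyond.

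Open and closed pairs differed in base composition. In a window of 500 bp centred on the midpoint between the starts, the ratio of observed to expected CpG had a median of 0.84 at open pairs (quartiles 0.74 and 0.93) and 0.57 at closed pairs (0.27 and 0.77). The GC content was 62.8% and 57.0%. Of the pairs with a ratio under 0.4, 15 of 41 were open (36.6%, interval 23.6% to 51.9%). The share was 84.4% (54 of 64) at 0.4 to 0.6, 92.7% (202 of 218) at 0.6 to 0.8, 96.1% (322 of 335) at 0.8 to 1.0 and 97.9% (94 of 96) above. A ratio under 0.4 went with a low open share, but 31 of the 67 closed pairs (46.3%) had a ratio of at least 0.6. Over all open pairs, fold enrichment and the ratio were nearly uncorrelated (rho 0.00, r 0.04, 687 pairs of the same library). The median fold enrichment was nevertheless lower at ratios under 0.4 (8.67, 15 open pairs) and at 0.4 to 0.6 (8.51, 54 open pairs). It was 11.13 at 0.6 to 0.8, 10.97 at 0.8 to 1.0 and 10.57 above. The lower medians lie near the lower quartile of all open pairs (8.64), and the difference was not tested.

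The open pairs with the lowest CpG ratio had starts far apart and a peak over only 1 of them. Tas1r1–Nol9, 753 bp apart with a ratio of 0.16, had a peak of 7.45 over Nol9, a polynucleotide kinase of ribosomal RNA processing, and none over the taste receptor gene Tas1r1. At Obsl1–Inha the peak of 8.67 covered Obsl1, a cytoskeletal adaptor, and not Inha, the inhibin alpha subunit. Haghl–Ccdc78 (4.00) was covered at Haghl. Nisch–Sema3g had the lowest peak of any open pair, 3.65 with 16 fragments, over Sema3g, a semaphorin. Cfap52–Stx8 was covered at Stx8, a SNARE of endosomes (7.19), and not at Cfap52, a protein of cilia and flagella. All 5 had start distances of 542 to 914 bp, so the 500-bp window centred between the starts held neither start. At Obsl1–Inha the ratio was 0.19 in this window and 0.39 over the whole region searched.

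**Figure D3:**
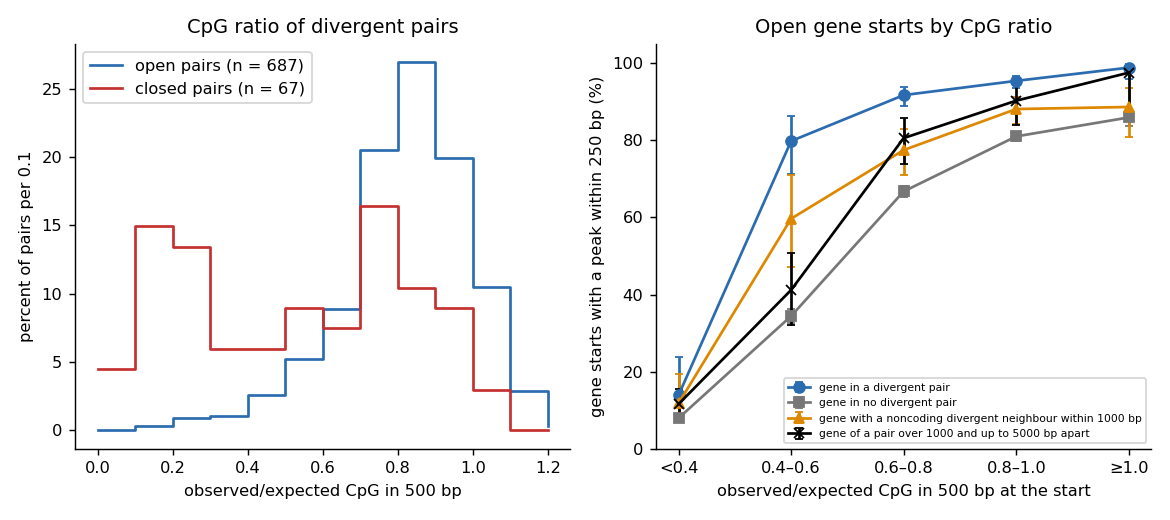
Left, percent of the 687 open (blue) and 67 closed (red) pairs in each bin of 0.1 of the observed to expected CpG ratio of a 500-bp window. Right, percent of gene starts with a peak within 250 bp by CpG ratio at the start, for genes in a divergent pair (blue), genes in no divergent pair (grey), genes with a noncoding divergent neighbour (orange) and genes of pairs over 1000 and up to 5000 bp apart (black), with Wilson 95% intervals. Closed pairs spread over the whole range, and between ratios of 0.4 and 1.0 the blue points lie above the grey ones by more than their intervals.

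Single gene starts were compared next, so that genes in pairs and genes in none were searched over the same 250 bp per side. Of the 1487 genes in pairs, 1332 (89.6%, interval 87.9% to 91.0%) had a peak, against 8671 of 20451 genes in no pair (42.4%, 41.7% to 43.1%). Head-to-head coding genes whose records overlap count among the genes in no pair, unless they also belong to a pair that met the rule. Both starts of a pair share DNA and often a peak, so the members of a pair are not independent. The groups also differ in CpG ratio at the start (median 0.83 and 0.54), and the shares were therefore set side by side within classes of this ratio. Under 0.4 they were 13.9% for paired and 7.93% for unpaired starts, with intervals of 7.72% to 23.7% and 7.38% to 8.53% that overlap. At 0.4 to 0.6 they were 79.8% and 34.4%, at 0.6 to 0.8 they were 91.7% and 66.8%, at 0.8 to 1.0 they were 95.4% and 81.0%, and from 1.0 they were 98.9% and 85.9%. Within these 4 classes the intervals did not overlap.

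Genes whose divergent neighbour is annotated as noncoding were open at 565 of 772 starts (73.2%), and coding genes of head-to-head pairs more than 1000 and up to 5000 bp apart at 378 of 775 starts (48.8%). The order of these 2 groups turned within classes of the CpG ratio from 0.6 up. At 0.6 to 0.8 the pairs farther apart were open at 80.6% of starts and those with a noncoding neighbour at 77.5%. The shares were 90.3% and 88.1% at 0.8 to 1.0, and 97.6% and 88.7% from 1.0 (41 and 97 starts). In each of these classes the intervals of the 2 groups overlapped. In these 3 classes the shares of both groups were higher than those of unpaired starts, which include both groups. From 1.0 the intervals of both groups overlapped that of unpaired starts. A raised open share was thus not particular to coding pairs within 1000 bp. The intervals of the pairs farther apart and of the divergent pairs overlapped from 0.8 up (84.1% to 94.2% and 93.6% to 96.8% at 0.8 to 1.0). The median fold enrichment at open starts was 10.9 for paired genes, 10.6 for those with a noncoding neighbour, 9.90 for unpaired genes and 7.66 for the pairs farther apart. Median widths of the widest peak followed the same order with 921, 882, 810 and 656 bp. The quartiles of all these groups overlapped (8.69 to 13.3 for paired and 7.32 to 12.4 for unpaired fold enrichment), so the difference in height between open paired and open unpaired starts was small against the spread within each group.

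**Figure D4:**
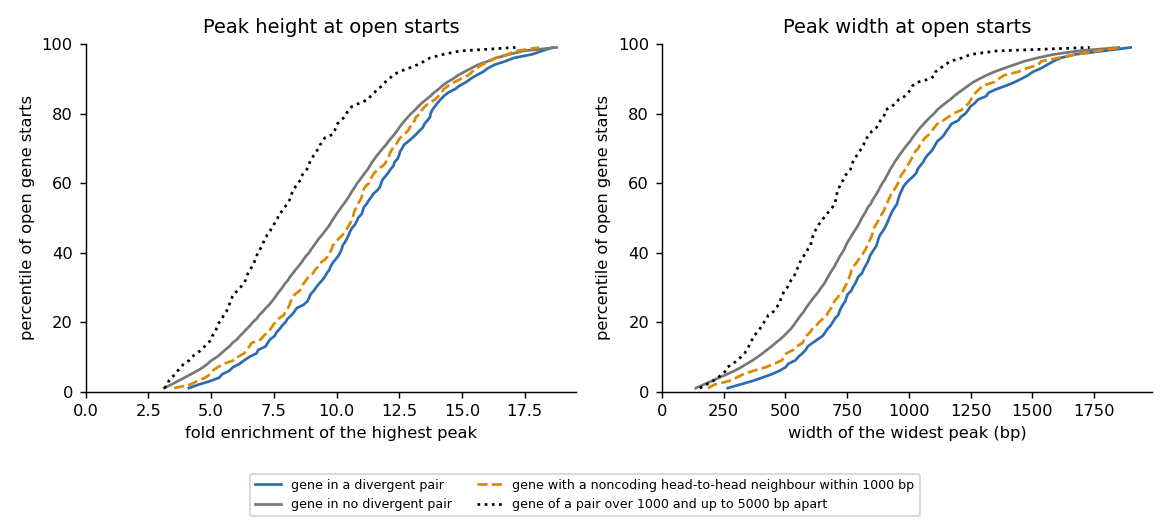
Percentiles of the fold enrichment of the highest peak (left) and of the width in bp of the widest peak (right) at open gene starts, for genes in a divergent pair (blue), genes in no divergent pair (grey), genes with a noncoding head-to-head neighbour (orange, dashed) and genes of pairs over 1000 and up to 5000 bp apart (black, dotted). The blue curve lies to the right of the grey one over most percentiles, with medians of 10.9 and 9.90 in height and 921 and 810 bp in width.

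The position of the peak was described as well. At paired starts the summit lay a median of 61 bp upstream of the start (133 to 1 bp upstream between the quartiles), that is towards the partner gene, and 75.1% of summits were upstream. At unpaired starts the median was 14 bp upstream (from 84 bp upstream to 63 bp downstream between the quartiles) and 55.0% were upstream. The quartile ranges overlapped, and the summit of a shared peak is upstream of at least 1 of its 2 starts by construction. The peak reached 525 bp upstream and 380 bp into the gene at paired starts, and 321 and 469 bp at unpaired ones. Starts with a noncoding neighbour lay between, with a summit 42 bp upstream and reaches of 405.5 and 455.5 bp. These are medians over starts whose upstream side, for a pair, is the partner's own promoter.

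Motif letters were counted in the 500-bp windows on both strands. Of the 687 open pairs, 80.3% held the Sp1 box GGGCGG, 54.0% the NF-Y box CCAAT, 35.7% the ETS core CCGGAAG, 22.1% the YY1 core ATGGCGG and 10.2% the NRF1 core GCATGCG. At all coding gene starts these shares were 52.6%, 48.6%, 14.5%, 9.70% and 5.82%. Among closed pairs they were 56.7%, 44.8%, 11.9% (8 pairs), 2.99% (2 pairs) and 4.48% (3 pairs). The E box CACGTG, bound by USF and MYC, was held by 14.4% of open and 14.9% of closed pairs and by 10.4% of all starts. The cAMP response element TGACGTCA was found in 5.09% of open and 1.49% of closed pairs (all starts 2.74%), and the AP-1 site TGACTCA in 3.93% and 5.97% (all starts 6.41%). The TATA box letters TATAAA were rare, in 6.70% of open and 5.97% of closed pairs against 16.4% of all starts. They were also rare at open starts of genes in no pair (8.63%) and of genes with a noncoding neighbour (6.55%).

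Since CpG-rich windows hold GC-rich letters more often, open pairs were also set beside the open starts of unpaired genes at a CpG ratio of at least 0.6 in both. There the Sp1 box was in 82.2% of pairs and 84.4% of unpaired starts, NF-Y in 52.6% and 45.5%, the ETS core in 38.5% and 26.99%, the YY1 core in 23.6% and 19.01% and the NRF1 core in 11.3% and 9.92%. The E box was in 15.4% and 14.8% and the cAMP response element in 5.50% and 4.74%. The TATA box letters were in 5.50% and 7.18% and the AP-1 site in 3.56% and 3.79%. The core ACTACAA of ZNF143 and THAP11 was in 7.44% and 5.44%. It was held by 53 pairs, all of them open, and by 4.87% of all coding starts, and the closed set has only 67 members. Windows of pairs hold the upstream sequence of both genes and those of other starts that of a single gene, and the part of this in the shares was not tested.

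Open pairs with the ACTACAA core had a median fold enrichment of 12.5 against 10.8 without it, and those with the NF-Y box 11.4 against 10.0. With and without the ETS core the medians were 11.30 and 10.50, and with and without the Sp1 box they were 11.04 and 10.24. For NRF1, YY1, the E box and the cAMP response element the medians differed by little (10.9 and 10.8, 10.8 and 10.9, 10.9 and 10.8, 10.8 and 10.8). With the TATA box letters the median was lower than without (10.07 and 10.93), as it was with the AP-1 site (10.23 and 10.86). These differences are small beside the quartiles of all open pairs (8.64 and 13.3). A match is a run of letters, and binding was not measured.

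**Figure D5:**
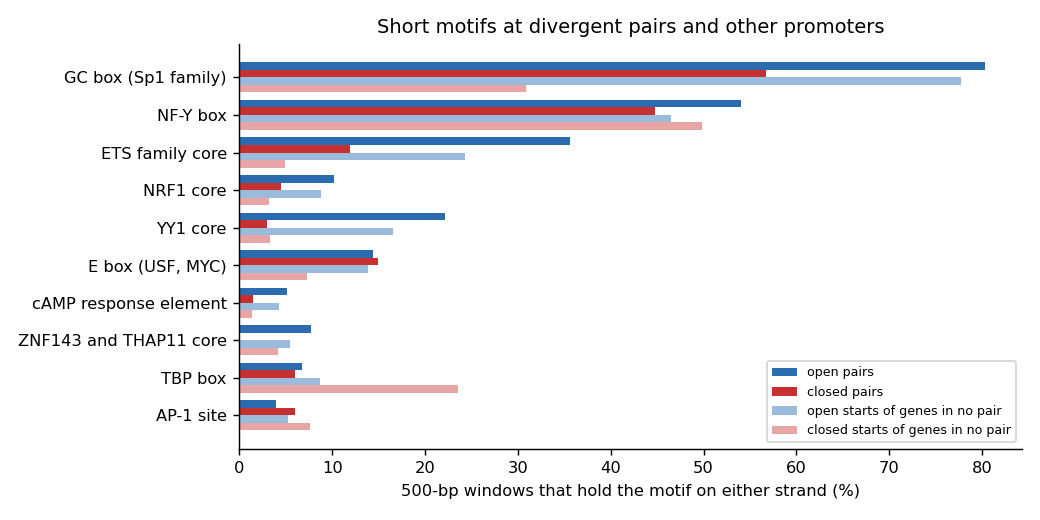
Percent of 500-bp windows that hold each of 10 short motifs on either strand, at open pairs (dark blue), closed pairs (dark red), open starts of genes in no pair (light blue) and closed starts of genes in no pair (light red). The ETS and YY1 cores are more frequent in open pairs (35.7% and 22.1%) than in the other 3 sets, and the TBP box (TATA box) is most frequent in closed starts of genes in no pair (23.5%).

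The roles of the genes were described by 23 lists of symbol patterns. Genes of DNA replication and repair were most often in divergent pairs among the lists with over 50 members, at 40 of 143 genes (28.0%), followed by core histones (27 of 101, 26.7%). General transcription and RNA polymerase genes (23.3%), respiratory chain genes (23.3%), mitochondrial ribosomal proteins (23.1%) and splicing genes (22.9%) came next, against 6.78% of all coding genes. No homeobox gene out of 160 was in a pair, and 2 of 1520 olfactory, vomeronasal and taste receptor genes were.

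Pairs with a replication or repair gene were open in 41 of 42 cases (97.6%), with a median fold enrichment of 12.3, where all 754 pairs gave 91.1% and all open pairs 10.8. None of the open shares by list was tested against that of all pairs. The highest was Mospd2–Fancb on the X chromosome at 18.4, where Fancb is a member of the Fanconi anaemia core complex. Atm–Npat, the double-strand break kinase and a coactivator of histone genes, had a peak of 12.4 with its summit between the starts. Brca1–Nbr1, a recombination factor and an autophagy receptor, had 9.35, and Mcm4–Prkdc, a replicative helicase subunit and the end-joining kinase, had 12.3. The closed member was Pinlyp–Xrcc1, a phospholipase inhibitor and a scaffold of single-strand break repair. There another annotated start of Xrcc1 had a peak, and the nearest peak was 477 bp from the starts, with a fold enrichment of 14.9.

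The counts of the gene expression lists also stand beside the 91.1% of all pairs. RNA polymerase and general transcription genes were open in 28 of 28 pairs, with Gtf2e1–Rabl3, a TFIIE subunit and a small GTPase, at 18.4. Splicing and RNA processing genes were open in 39 of 40, aminoacyl-tRNA synthetases in 5 of 5 and mitochondrial ribosomal proteins in 18 of 18. Kars–Terf2ip, the lysyl-tRNA synthetase and the telomere protein RAP1, reached 15.8. Mrpl50–Zfp189 reached 16.03, and Mrps12–Sars2, which joins a mitochondrial ribosomal protein to the mitochondrial seryl-tRNA synthetase, 11.7. Rpl36al–Mgat2 led the cytosolic ribosome list at 13.4, and 9 of its 10 pairs were open (90.0%). The closed one was Rnf151–Rps2, whose Rps2 had a peak at another annotated start.

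Among pairs of energy metabolism and protein quality control, 23 of 24 respiratory chain pairs, 8 of 8 proteasome pairs and 13 of 14 chaperone pairs (92.9%) were open, near the 91.1% of all pairs. Esf1–Ndufaf5 led the respiratory list at 18.01, and Ndufaf5 is an assembly factor of complex I rather than a subunit. Mrpl32–Psma2, a mitochondrial ribosomal protein and a proteasome core subunit, reached 14.0, and Tbccd1–Dnajb11, which includes an endoplasmic reticulum cochaperone, 16.8. The closed chaperone pair was Hspa1a–Hspa1l, the inducible heat shock protein 70 and its testis form, 547 bp apart with the nearest peak 3101 bp away. The 500-bp window between its starts has no near-identical copy elsewhere in the genome. This window holds neither gene start, and the sequence at the starts and inside the genes was not searched for copies.

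Cell cycle genes were open in 27 of 28 pairs, with Abce1–Anapc10, a ribosome recycling factor and a subunit of the anaphase-promoting complex, at 15.3. Membrane traffic genes were open in 19 of 20 pairs, ubiquitin genes in 28 of 33 (Cep44–Fbxo8 the highest at 17.8), genes named Tmem in 21 of 23, solute carriers in 15 of 16 (Fkbp15–Slc31a1, with the copper importer, at 14.7) and zinc fingers in 22 of 24. Pairs in no list were open in 367 of 409 cases (89.7%), close to the share over all pairs. Closed pairs of these lists included Fbxo44–Fbxo2, which joins 2 F-box proteins, Pcdh12–Rnf14, Nrg4–Tmem266, Slc27a5–Trim28 and Zfp558–Mbd3l1. Among them Rnf14, Trim28 and Zfp558 had a peak at another annotated start. Of the list members in no pair, 79.5% of membrane traffic, 77.6% of cell cycle, 69.2% of zinc finger, 60.1% of ubiquitin, 49.3% of Tmem and 41.0% of solute carrier genes had an open start, against 42.4% of all unpaired starts. In the lists described before, unpaired members were often open too. The shares were 93.75% for aminoacyl-tRNA synthetases, 93.3% for the mitochondrial ribosome and 92.4% for RNA polymerase and general transcription. They were 86.3% for splicing, 85.4% for replication and repair, 84.8% for the respiratory chain and 81.5% for the cytosolic ribosome. Proteasome and chaperone genes had 78.6% and 71.6%. The region searched is wider for a pair than for a single start, and these shares were not tested against those of the pairs.

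Histone pairs are arranged as 1 H2A beside 1 H2B gene in most cases, and 11 of 14 were open. Hist1h2ah–Hist1h2bk was the highest at 15.0. Of the 3 closed pairs, Hist1h2bq–Hist1h2ao and Hist1h2ap–Hist1h2br have a near-identical copy of the 500-bp window elsewhere in the genome (at least 450 bp at 98% identity or more), and only uniquely mapped reads were kept, the part of which was not tested. The third closed pair, Hist1h2ba–Hist1h2aa, encodes testis histone variants, has no such copy and lay 40604 bp from the nearest peak. Counting only histone pairs without a copy, all but Hist1h2ba–Hist1h2aa were open.

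Of 6 pairs matched by the immune list 3 were open, and Cd3eap in Cd3eap–Ppp1r13l (5.95), although named after CD3E, is a subunit of RNA polymerase I. The pairs closed in this list were Il17rb–Chdh, Smyd1–Cd8b1 and Il11–Tmem190, and Il11 had a peak at another annotated start. Of the 2 ion channel pairs 1 was open, and Grik5–Zfp574, with a kainate receptor subunit, was closed. Zfp574 had a peak at another annotated start. The pattern for collagens took in Polk–Col4a3bp (15.0), but Col4a3bp encodes a ceramide transfer protein. Nt5c3–Vmn1r4 (14.0) and S100a1–S100a13 (4.45) were the highest of the receptor and skin lists. Pairs matched by the testis and germ line list, which includes the broad Ccdc names, were open in 25 of 30 cases (83.3%), against 91.1% of all pairs. Of its unpaired members 100 of 325 had an open start (30.8%), against 42.4% of all unpaired starts. A pair also counts as open where the peak lies at the partner's start, so the share of pairs and the share of single starts are unlike measures. The closed pairs of this list named by rule were Aspa–Spata22, Tssk3–Fam229a and Dgcr2–Tssk2, and Aspa and Dgcr2 had a peak at another annotated start.

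The basement membrane collagens form 3 head-to-head pairs in the genome. Col4a4–Col4a3, whose chains are known from the glomerular basement membrane, was the only one that met the rule, and it was closed, with 72 bp between the starts and the nearest peak 32276 bp away. The gene records of Col4a1 and Col4a2, the widely expressed chains, overlap by 22 bp, and this promoter lay under a peak of 1021 bp with a fold enrichment of 8.15. Col4a5 and Col4a6 begin 1309 bp apart, and a peak of 6.57 lay in their region. Of 20 pairs listed from textbook knowledge, 6 met the rule and 10 were left out because their records overlap, Hspd1–Hspe1, the mitochondrial chaperonins, among them (11.6, 170 fragments). Wrap53–Trp53, a telomerase trafficking factor and p53, was in the set with 104 bp between the starts and a low peak (4.65, 35 fragments, 257 bp). In the whole annotation 446 coding head-to-head pairs overlap, and 384 of these regions were open (86.1%).

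The 67 closed pairs were of mixed kind. In 17 of them a gene had a predicted or clone name. In 33 of the other 50 at least 1 gene is known for a role outside fibroblasts, by a grouping made from background knowledge after the closed pairs were known. Open pairs were not grouped in this way, and some hold such genes too, so the count does not show what marks closed pairs. Testis, germ line or cilia genes were in 17 of these, such as Smc1b, a cohesin of meiosis, Stag3, another meiotic cohesin, Ddx25, a testis helicase, and Tssk3, a spermatid kinase. Muscle or blood genes were in 4, such as Ckm, the muscle creatine kinase, and Lcp1, the leukocyte plastin. Kidney, liver, thyroid or retina genes were in 7, among them Nphs1, the nephrin of podocytes, Duox2 with its maturation factor Duoxa2, and Best1. Best1 itself had a peak at another annotated start. Genes of neurons, such as Nr2e1 and Grik5, were in 4, and the imprinted pair Sgce–Peg10 made up the rest.

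Closed pairs with the most CpG resembled open ones in sequence. Smc1b–Ribc2 had a ratio of 1.01 and lay 89098 bp from the nearest peak. Zfyve28–Cfap99 had 1.00, with the nearest peak 6678 bp away. Ndufa1–Rnf113a1, a complex I subunit and a spliceosomal protein that are both of general use, had 0.98 and was 63885 bp from the nearest peak on the X chromosome.

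Ddx25–Pus3 and Plcd3–Acbd4 (both 0.91) differed from these, as Pus3, a pseudouridine synthase, and Acbd4, an acyl-CoA binding protein, had a peak at another annotated start. The nearest peaks were 510 and 1045 bp away with fold enrichments of 10.6 and 8.55. Among all closed pairs, 21 had a peak within 250 bp of another annotated transcript start of at least 1 gene, and only at Sox6–1110004F10Rik was this so for both genes. The other 46 had none. When any annotated start was allowed, a choice made after seeing the data, 93.9% of pairs were open.

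The closed pairs with the shortest distance were mostly of this kind. Plcd3–Acbd4 starts are 24 bp apart, those of Best1–Rab3il1 36 bp, Rnf151–Rps2 53 bp, Ddx25–Pus3 67 bp and Kctd19–Lrrc36 69 bp. The first 4 had a peak at another annotated start of a gene, and Kctd19–Lrrc36, with a gene of meiosis, had none. Over all 67 closed pairs the nearest peak was a median of 7852 bp away (quartiles 2732 and 40411), 7 had a peak within 1000 bp and 12 had none within 50000 bp.

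Imprinted genes, of which only the copy from 1 parent is active, gave 2 pairs that were picked after their values were seen. Sgce–Peg10, 99 bp apart, was closed with a CpG ratio of 0.74 and the nearest peak 145311 bp away. Peg3–Usp29, 147 bp apart, was open with a low fold enrichment of 4.24. There 66 fragments (interval 51.0 to 84.0) lay at the summit over 14.8 expected from its surroundings. Allele-specific reads were not analysed.

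By chromosome, the open share was 100% on chromosomes 3 (26 pairs) and 12 (31 pairs), 84.7% on chromosome 7 (50 of 59), 83.8% on chromosome 13 (31 of 37) and 60.0% on the X chromosome (12 of 20), against 92.0% on all autosomes (675 of 734). The closed X-linked pairs included 2 with a near-identical copy, both with a Dmrtc1 gene, and Trpc5–Rtl4, Asb12–Pfn5 and Ndufa1–Rnf113a1. The 12 open X-linked pairs had a median of 62.5 fragments at the summit (36 to 125) against 77 at autosomal pairs, but a median fold enrichment of 14.0 against 10.8.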

How the data were processed

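One ATAC-seq peak list of the parental NIH-3T3 line was used. The submitters' processing notes name mm10, STAR 2.5.3a, Picard, SAMtools, deepTools and MACS2 2.1.1.20160309. According to the methods, the authors removed duplicates, restricted the data to unique alignments on the autosomes and both sex chromosomes, and called peaks in paired-end mode. No shift of reads for the transposase is described. The methods refer to the ChIP-seq steps, in which peaks in blacklisted regions or in the input were discarded. Whether this was done for the deposited list is not stated, and a pair could lack a peak for that reason. The authors deposited a score, a fold enrichment (a ratio), and −log10 p and −log10 q values per peak. The lowest −log10 q was 1.30. The peak list gives no read total for this library, and the methods state only a range for all libraries. The fragments at each summit were recovered from the deposited fold enrichment and −log10 p, and were whole within 0.02 for all but 2 of 63456 peaks (median 29, quartiles 19 and 52, lowest 10, genome background 2.81).

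Genes were taken from GENCODE M21 and sequence from the RefSeq copy of the same assembly, GRCm38. Pairs, peak overlaps of at least 1 bp, base composition and motifs were computed in Python 3.11.15 with NumPy 2.4.6 and pandas 2.3.3, and the code was tested on simulated data. Gene starts are the 5′ ends of gene records. The CpG ratio is the number of CpG times the window length, divided by the product of C and G counts. The highest peak stands for a pair. Near-identical copies were searched with BLAST 2.17.0. Wilson and exact Poisson intervals (95%) cover counting error only, as PCR copies are not independent molecules.

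The members, gene lists and motifs were chosen with earlier results of these data known. Pairs named in the text were the extremes of fold enrichment, width, CpG ratio and distance among pairs without predicted or clone names, pairs with separate or partial peaks, textbook pairs, and the highest and closed pairs of each list. Exceptions are stated, and 2 pairs that this rule names are not reported here. Alternatives changed the peak threshold (q at most 1e-05, fold enrichment of at least 5), the distance (300 bp), the extension and window, predicted names and loci. The 30 other samples were not analysed here.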

Additional observations from a re-analysis of the deposited data

How the results depend on the processing

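No paired analysis was possible because the peaks of a single library were used. Of 48 alternative values, 36 stayed within the counting interval of the value reported. With peaks of at least 5-fold enrichment, 88.3% of pairs, 86.7% of paired starts and 38.6% of unpaired starts were open. With starts at most 300 bp apart, 91.9% of paired starts were open, 97.5% of open pairs had 1 peak over both starts, 47.4% had the summit between them and the median CpG ratio of open pairs was 0.86. The share of unpaired starts was 41.3% at q of at most 1e-05, 43.7% with 500 bp and 41.0% with 100 bp per side, and 45.4% without predicted or clone names. With any annotated transcript start, an alternative added after seeing the data, 93.9% of pairs were open. In each of these settings paired starts were open more often than unpaired ones, wherever both were computed. Leaving out windows with a near-identical copy, also added later, gave 91.6%.

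The peak list has no counts outside peaks, so a weak signal at a closed pair was not detectable here, and the lowest peak of the list held 10 fragments. A gene record can begin upstream of the start used in these cells, and pairs whose records overlap were left out by the rule. Without replicates, the spread between cultures is unknown.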
